A study of Homo sapiens with 18 samples.

Results

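Host transcripts of small nucleolar RNAs (snoRNAs) and of microRNAs were followed in A2780 and SKOV3, established human ovarian cancer cell lines, after exposure to daphnetin, a dihydroxycoumarin. A member was any gene row named SNHG followed by digits, any row named MIR...HG, and GAS5, ZFAS1 and EPB41L4A-AS1. The rule took 75 of 56303 gene rows: 25 snoRNA hosts and 50 microRNA hosts, which are described apart. There were 6 groups of 3 RNA-seq libraries: A2780 in DMSO, the solvent control, A2780 with daphnetin at 20 mg/L, A2780 with daphnetin at 40 mg/L, and the same 3 treatments of SKOV3. The labels call all of them wild type, name DMEM and RPMI-1640 as the media of the lines and give no duration of treatment. A difference between the lines therefore cannot be told apart from a difference in medium. Each line is a single culture-adapted cancer model, and nothing in the labels says that the 3 libraries of a group came from separate cultures, so the p-values describe variation among libraries that could be technical replicates.

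Total counts ran from 30016475 to 37220879 reads per A2780 library and from 35105152 to 44132931 per SKOV3 library. ERBB2, which is amplified in SKOV3, averaged 64.6 CPM, the read count scaled to library size, in A2780 in DMSO and 2760 CPM in SKOV3 in DMSO. The labels call both lines ovarian tissue. Epithelial markers summed to 4.38 to 6.52 CPM in A2780 in DMSO, and in SKOV3 to 1470 to 1490 CPM in DMSO against 805 to 928 CPM with daphnetin at 40 mg/L. Immune markers summed to 5.17 to 5.92 CPM in A2780 in DMSO, and in SKOV3 to 72.6 to 79.8 CPM in DMSO and 87.7 to 104 CPM with daphnetin at 40 mg/L. In SKOV3 this sum was nearly all CD68, which averaged 74.4 CPM without daphnetin and 96.7 CPM with 40 mg/L, while each of the other 7 markers averaged under 1 CPM and PTPRC went from 0.17 to 0.0229 CPM. Fibroblast markers went from a sum of 810 to 856 CPM without daphnetin to 514 to 575 CPM with 40 mg/L in A2780, and from 399 to 437 CPM to 311 to 335 CPM in SKOV3. Reads of mitochondrial genes were 10.6% to 16.5% of each A2780 library and 4.36% to 5.23% of each SKOV3 library. The part of these shifts in the results was not tested.

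Host transcripts carry small RNAs inside their introns or exons. Most snoRNAs are cut from spliced introns and then guide the 2′-O-methylation (box C/D) or pseudouridylation (box H/ACA) of ribosomal RNA, while the spliced exons of hosts such as GAS5 and SNHG1 are often degraded by nonsense-mediated decay when they are translated. Many snoRNA hosts begin with a terminal oligopyrimidine tract, a C followed by a run of pyrimidines, which couples the translation of growth-related transcripts to mTOR signalling. MicroRNA hosts are primary transcripts from which Drosha and DGCR8 cut a hairpin, and bases 2 to 8 of the mature microRNA, the seed, pair with target messenger RNAs.

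RefSeq places 183 snoRNAs inside 21 of the 25 snoRNA hosts, 83 of them in SNHG14, 11 in GAS5 and 9 in SNHG1. On the same strand it places 80 microRNAs inside 47 of the 50 microRNA hosts, counted as microRNA genes. These include MIR124-2 and MIR2052, whose RefSeq strand was not read and whose deposited rows lie on the host strand. For the hosts with enough reads to test, RefSeq gave 78 mature sequences in 26 hosts, where a gene can give a sequence from each arm and a few lie on the strand opposite to the host. The microRNAs of the hosts with the largest values below are shown here 5′ to 3′ as RefSeq on GRCh38.p14 gives them, with the seed in capitals. miR-22-3p comes from MIR22HG, whose mature sequence lies at chr17:1713914-1713935 on the minus strand. The next 6 come from MIR17HG, where miR-17-5p shares its seed with miR-20a-5p and miR-19a-3p shares its seed with miR-19b-3p.
hsa-miR-22-3p: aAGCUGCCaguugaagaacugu
hsa-miR-17-5p: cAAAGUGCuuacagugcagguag
hsa-miR-20a-5p: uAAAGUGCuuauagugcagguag
hsa-miR-18a-5p: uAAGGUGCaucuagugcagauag
hsa-miR-19a-3p: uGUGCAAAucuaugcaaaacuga
hsa-miR-19b-3p: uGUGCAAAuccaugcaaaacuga
hsa-miR-92a-3p: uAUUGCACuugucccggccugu

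The seed GAGGUAG of the let-7 family occurred in 6 hosts, more than any other seed among the members. These are MIR100HG with let-7a, MIR99AHG with let-7c, MIRLET7BHG with let-7a and let-7b, MIRLET7DHG with let-7d on the strand opposite to the host, MIR4458HG and MIR4500HG. The sequences are shown because these hosts moved in different directions in SKOV3.
hsa-let-7a-5p: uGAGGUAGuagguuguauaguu
hsa-let-7b-5p: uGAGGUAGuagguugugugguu
hsa-let-7c-5p: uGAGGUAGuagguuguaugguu
hsa-let-7d-5p: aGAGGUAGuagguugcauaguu
hsa-miR-4458: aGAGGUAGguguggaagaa
hsa-miR-4500: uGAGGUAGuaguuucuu

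MIR100HG and MIR99AHG are alike in their other microRNAs too, since miR-100-5p and miR-99a-5p share a seed and both hosts hold miR-125b. MIR222HG holds the pair miR-221 and miR-222, which share a seed. miR-31, miR-137, miR-210, miR-4435 and miR-4697 come from MIR31HG, MIR137HG, MIR210HG, MIR4435-2HG and MIR4697HG.
hsa-miR-100-5p: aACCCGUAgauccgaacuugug
hsa-miR-99a-5p: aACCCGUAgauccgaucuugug
hsa-miR-125b-5p: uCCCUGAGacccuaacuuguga
hsa-miR-221-3p: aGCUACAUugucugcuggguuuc
hsa-miR-222-3p: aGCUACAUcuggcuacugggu
hsa-miR-31-5p: aGGCAAGAugcuggcauagcu
hsa-miR-137-3p: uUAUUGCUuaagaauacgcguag
hsa-miR-210-3p: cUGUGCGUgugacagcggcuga
hsa-miR-4435: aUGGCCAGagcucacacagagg
hsa-miR-4697-3p: uGUCAGUGacuccugccccuuggu

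For the snoRNA hosts the start of the transcript is shown, from 10 bases before to 20 bases after the RefSeq start on GRCh38.p14. Capitals mark a C followed by at least 4 pyrimidines whose first C lies within 5 bases of the start, read on the strand of the gene. The first 5 hosts hold such a run and the last 3 do not. The RefSeq start lay within 10 bases of the start of the deposited row for 10 of 20 snoRNA hosts, among them SNHG4, SNHG5 and EPB41L4A-AS1. For SNHG1, SNHG8, GAS5, ZFAS1 and SNHG12 the starts were 29, 53, 163, 464 and 1110 bases apart, so these stretches are not the starts of the counted gene models.
ZFAS1, chr20:49278632-49278661, plus strand: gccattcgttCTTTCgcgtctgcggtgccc
SNHG12, chr1:28581854-28581883, minus strand: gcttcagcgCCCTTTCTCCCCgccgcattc
SNHG8, chr4:118278752-118278781, plus strand: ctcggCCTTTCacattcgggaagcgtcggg
SNHG5, chr6:85678714-85678743, minus strand: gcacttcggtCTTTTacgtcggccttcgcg
SNHG4, chr5:139274091-139274120, plus strand: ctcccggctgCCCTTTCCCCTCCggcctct
SNHG1, chr11:62855866-62855895, minus strand: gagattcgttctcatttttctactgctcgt
EPB41L4A-AS1, chr5:112160516-112160545, plus strand: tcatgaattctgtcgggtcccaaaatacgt
GAS5, chr1:173869026-173869055, minus strand: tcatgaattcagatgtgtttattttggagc

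Such a run was found in 10 of the 20 snoRNA hosts with a RefSeq promoter entry, in 16 of 39 microRNA hosts (41.0%), in 19 of 30 protein-coding snoRNA hosts (63.3%) and in 5749 of 27305 genes overall (21.1%). A match is a description of these letters and not a mapped transcription start.

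In DMSO, the snoRNA hosts were the more abundant class and were higher in A2780, whereas several microRNA hosts were read in SKOV3 alone. Levels of different genes are compared per length, as CPM per kilobase of exon (RPKM). The median snoRNA host stood at 5.76 RPKM in A2780 and 1.54 RPKM in SKOV3, with 21 and 17 of 25 hosts at 1 RPKM or above. The median microRNA host stood at 0.00625 RPKM in A2780 and 0.0602 RPKM in SKOV3, with 7 and 14 of 50 at 1 RPKM or above. In A2780 GAS5 led at 39.5 ± 0.228 RPKM (SD, n = 3), ahead of SNHG6 at 38.3 ± 2.64, EPB41L4A-AS1 at 32.3 ± 0.990 and ZFAS1 at 27.2 ± 0.471. GAS5 and SNHG6 lay within their spread of each other. In SKOV3 the order was SNHG6 at 35.3 ± 1.53 RPKM, ZFAS1 at 23.9 ± 1.698 and SNHG3 at 11.8, and GAS5 stood at 6.91 RPKM. Among microRNA hosts MIR4697HG led in A2780 at 4.93 ± 0.237 RPKM and MIR31HG led in SKOV3 at 8.66 ± 0.750, followed by MIR22HG at 4.89 ± 0.253. IFNWP19 on the opposite strand covers 40.7% of the MIR31HG exons.

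**Figure D1:**
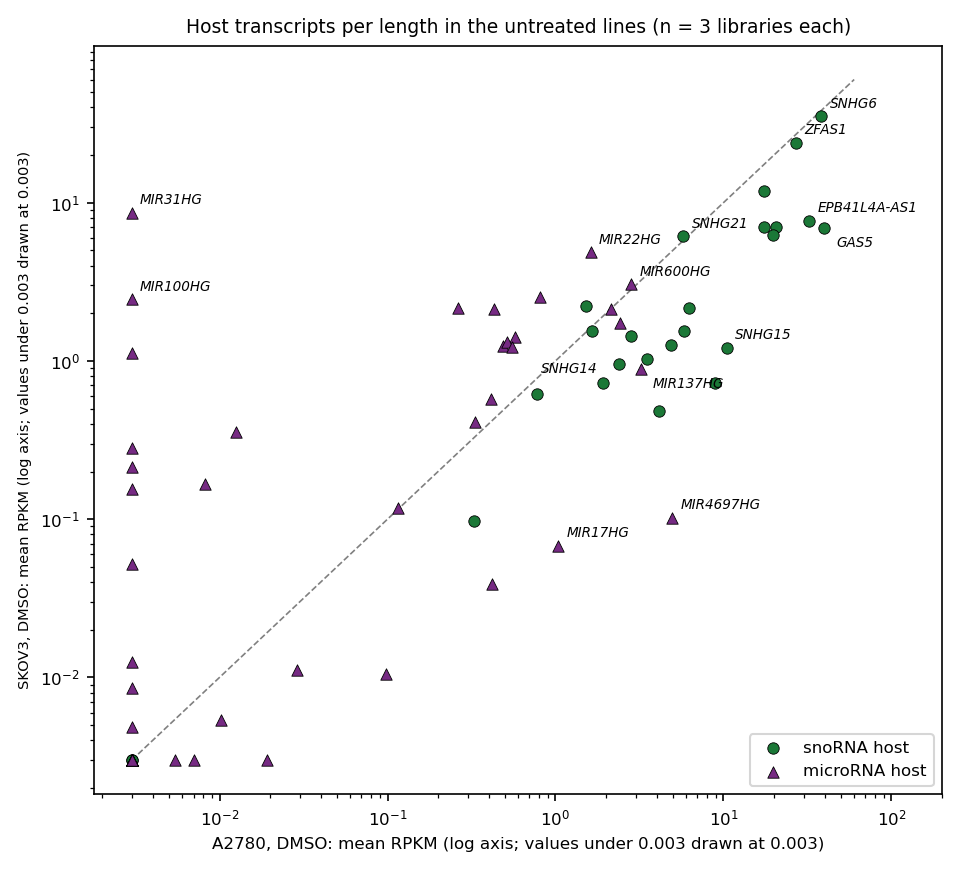
Mean RPKM of each host in A2780 in DMSO (horizontal) and SKOV3 in DMSO (vertical), both on log axes, n = 3 libraries a group, with snoRNA and microRNA hosts in separate colours and the dashed line marking equal levels. Most snoRNA hosts lie below the line, such as GAS5 at 39.5 against 6.91 RPKM, and MIR31HG and MIR100HG lie at the left edge, with no reads in A2780 in DMSO.

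Of all genes, 78.3% differed between the lines in DMSO, 41.2% higher and 37.2% lower in SKOV3, and the libraries of the lines did not overlap for 79.6% (edgeR quasi-likelihood test, Benjamini-Hochberg adjusted p under 0.05, fit of all 18 libraries). Of 22 snoRNA hosts tested, 17 were lower in SKOV3 and 1 was higher, with a median log2 difference of -1.47 against 0.05 over all genes. SNHG4, which carries SNORA74A, differed most among those at 1 CPM or above, at -3.62 on the log2 scale, and SNHG15, the host of SNORA9, followed at -3.11 (SE 0.10, adjusted p = 1.71e-28). GAS5 differed by -2.52 (SE 0.07, adjusted p = 5.6e-31), EPB41L4A-AS1, the host of SNORA13, by -2.07 and SNHG1 by -1.32. ZFAS1 differed by only -0.18 (SE 0.07, adjusted p = 0.011), a call that was lost without the second SKOV3 DMSO library (adjusted p = 0.104). SNHG10 was the host that was higher in SKOV3, at 0.55 (SE 0.16, adjusted p = 0.00212), and 20.1% of its exons overlap GLRX5.

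The 25 microRNA hosts tested between the lines were 15 higher and 6 lower in SKOV3, with a median of 1.36. Of all genes, 41.2% were higher and 37.2% lower. MIR31HG, MIR99AHG, MIR100HG, MIR205HG, MIR3681HG, MIR4500HG and MIR5689HG passed the filter on low counts in SKOV3 and not in A2780, and MIR663AHG the reverse. A host that passes through a single line could hardly be called in the other direction, so these counts and the median follow in part from the filter. MIR100HG and MIR31HG had no read in any A2780 DMSO library, against 1019 to 1136 and 244 to 274 reads per library in SKOV3. Set against a floor of 3 counts per library, MIR100HG was at least 297-fold higher in SKOV3 and MIR31HG at least 70.7-fold higher. MIR5689HG, MIR3681HG and MIR205HG were also at 0 in A2780 in DMSO and were at least 10.6-fold, 9.05-fold and 6.07-fold higher in SKOV3. MIR22HG was higher in SKOV3 by 1.59 on the log2 scale (SE 0.10, adjusted p = 8.06e-18). Lower in SKOV3 were MIR4697HG at -5.56 (SE 0.16) and MIR17HG at -3.87 (SE 0.28, adjusted p = 3.56e-16).

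In A2780 the snoRNA hosts that passed the test were lower with daphnetin at both doses, apart from ZFAS1 at 40 mg/L. At 20 mg/L, 11 of 22 fell and none rose, where 36.9% of all genes were called, 18.9% lower and 18.1% higher, and the median log2 change was -0.25 against 0.01 over all genes. With 40 mg/L, 10 fell and 1 rose, where 36.9% of all genes were called, 19.2% lower and 17.7% higher, and the median was -0.21 against -0.01. Treated and DMSO libraries did not overlap for 13 of the 22 hosts at 20 mg/L, against 45.9% of all genes, and for 14 at 40 mg/L, against 47.1%. The hosts that fell at both doses were GAS5, SNHG1, SNHG4, SNHG10, SNHG15, SNHG16, SNHG17 and SNHG21. The summed level of the class was 813 ± 13.8 CPM in DMSO, 698.0 ± 8.16 at 20 mg/L and 727 ± 23.6 at 40 mg/L (SD, n = 3). The comparisons with 20 and 40 mg/L share their DMSO libraries. Leaving out the first DMSO library or the first 20 mg/L library reduced the count at 20 mg/L from 11 to 7. In bulk RNA, fewer cells of a kind and less RNA per cell cannot be told apart.

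GAS5, a transcript named for its accumulation in growth-arrested cells, stood at 143.6, 142.5 and 144.1 CPM in the A2780 DMSO libraries. It stood at 110.0, 104.9 and 110.6 CPM at 20 mg/L and at 118.5, 133.2 and 117.1 CPM at 40 mg/L. Every treated library was below every DMSO library. The log2 change was -0.41 at 20 mg/L (SE 0.06, adjusted p = 7.71e-06) and -0.24 at 40 mg/L (SE 0.06, adjusted p = 0.00366), and the call at 40 mg/L was lost when libraries were scaled by their totals alone (-0.14, adjusted p = 0.111). The difference between the doses, 0.17, did not pass the test (adjusted p = 0.0741), though it did under DESeq2 (0.0411) and in a fit of all 18 libraries (0.0447).

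SNHG1, which carries SNORD22 and SNORD25 to SNORD31, stood at 66.5, 65.9 and 64.1 CPM in A2780 in DMSO, at 43.0, 48.0 and 45.5 CPM at 20 mg/L and at 48.5, 45.5 and 44.1 CPM at 40 mg/L. The treated libraries lay together well below the DMSO libraries, and the doses overlapped. Its log2 changes were -0.53 at 20 mg/L (SE 0.07, adjusted p = 2.67e-07) and -0.53 at 40 mg/L (SE 0.07, adjusted p = 3.23e-07). SNHG15 fell most at 20 mg/L, from 38.4, 37.8 and 38.5 CPM to 22.0, 20.3 and 21.1 CPM, and stood at 21.2, 21.9 and 20.7 CPM at 40 mg/L. All 6 treated libraries of SNHG15 were below the DMSO libraries, with log2 changes of -0.86 (SE 0.07, adjusted p = 1.94e-10) and -0.87 (SE 0.07, adjusted p = 2.09e-10).

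SNHG4 fell from 18.6, 18.3 and 14.6 CPM to 9.78, 11.9 and 12.7 CPM at 20 mg/L (log2 -0.59, SE 0.12, adjusted p = 0.000329), without overlap. The exons of SNHG4 overlap those of MATR3 on the same strand over 28.8% of their length, so part of its reads may belong to that gene. SNHG17 fell from 15.0, 14.8 and 14.1 CPM to 9.57, 9.99 and 10.8 CPM at 20 mg/L (log2 -0.54, SE 0.10, adjusted p = 5.61e-05), also without overlap. At 40 mg/L the lowest changes at 1 CPM or above were those of SNHG21 and SNHG10. SNHG21 fell from 6.31, 5.61 and 6.29 CPM to 2.52, 3.81 and 3.47 CPM (log2 -0.90, SE 0.17, adjusted p = 0.000107). SCARNA15 coincides with 72.9% of the SNHG21 exons. SNHG10 fell from 3.21, 2.72 and 2.96 CPM to 1.29, 1.74 and 1.79 CPM (log2 -0.89, SE 0.20, adjusted p = 0.000517). In both, the 3 libraries at 40 mg/L were below all DMSO libraries.

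EPB41L4A-AS1 stood at 111, 104 and 108 CPM in A2780 in DMSO, at 88.2, 103 and 102 CPM at 20 mg/L and at 103, 92.7 and 86.3 CPM at 40 mg/L. The treated libraries were below the DMSO libraries by a margin that was small for the upper ones. Its log2 change was -0.15 at 20 mg/L, not past the test (adjusted p = 0.101), and -0.22 at 40 mg/L (SE 0.07, adjusted p = 0.0196). The call at 40 mg/L was lost under scaling by totals (adjusted p = 0.289) and without the first or the third DMSO library (0.0728 and 0.0654) or the second or the third library at 40 mg/L (0.0661 and 0.154). Exons of EPB41L4A on the opposite strand cover 49.6% of EPB41L4A-AS1, and since the strand setting of the counting is not known the reads of the pair cannot be told apart.

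ZFAS1, the antisense transcript at ZNFX1 that carries the SNORD12 family, stood at 61.1, 59.9 and 62.0 CPM in A2780 in DMSO, at 64.9, 68.9 and 60.3 CPM at 20 mg/L and at 64.8, 73.3 and 72.7 CPM at 40 mg/L. It was the snoRNA host that rose in A2780, and the libraries at 40 mg/L were above all DMSO libraries, while those at 20 mg/L overlapped them. The log2 change at 20 mg/L was 0.08 (adjusted p = 0.414) and at 40 mg/L 0.19 (SE 0.07, adjusted p = 0.0316). The call at 40 mg/L was lost without the second DMSO library (0.0632) or the second or the third library at 40 mg/L (0.141 and 0.118). Exons of ZNFX1 on the opposite strand cover 11.1% of ZFAS1.

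Between 40 and 20 mg/L in A2780, 14.6% of all genes were called, 6.71% higher and 7.85% lower, and 1 snoRNA host passed. The libraries of the doses did not overlap for 6 of the 22 hosts, against 31.6% of all genes. SNHG20 stood at 7.28, 6.83 and 9.72 CPM at 20 mg/L and fell to 4.04, 5.35 and 5.24 CPM at 40 mg/L (log2 -0.71, SE 0.14, adjusted p = 0.000852). SEC14L1 coincides with 18.3% of the SNHG20 exons. SNHG1, EPB41L4A-AS1 and ZFAS1 did not pass between the doses, with log2 differences of 0.01, -0.06 and 0.11.

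**Figure D2:**
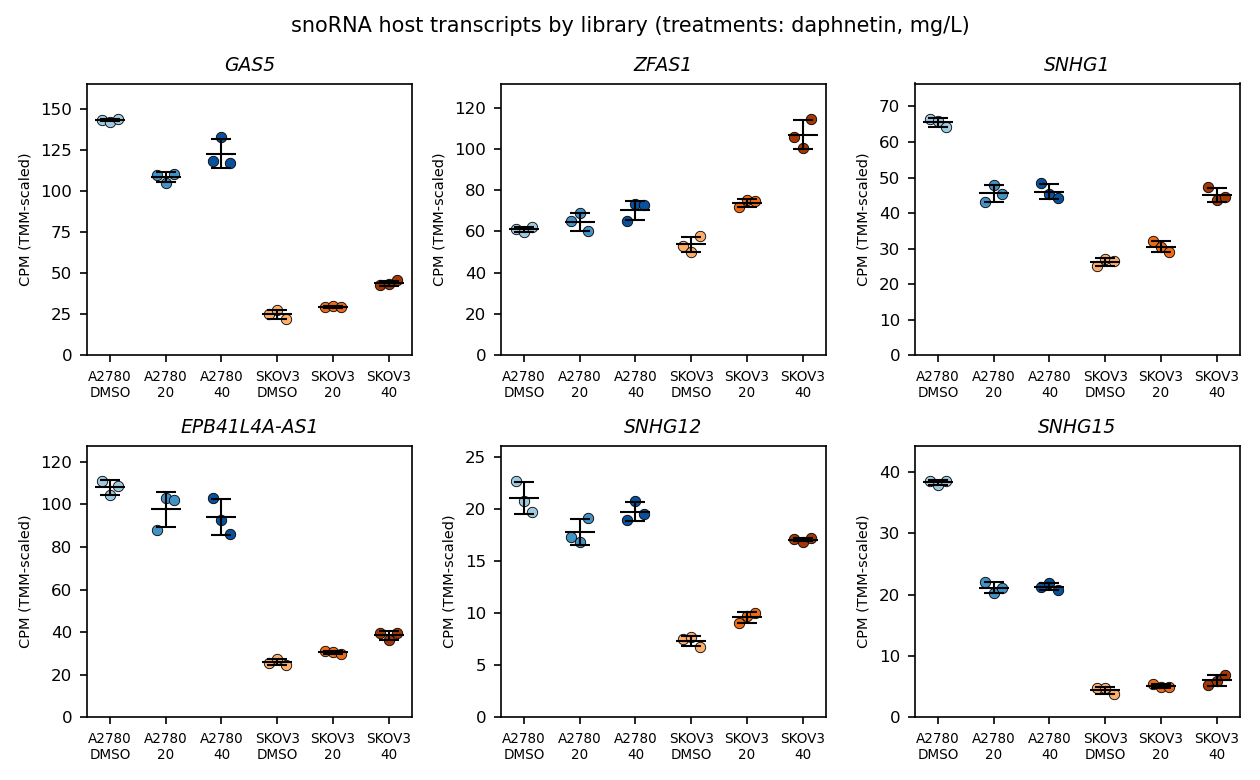
CPM on the TMM scale of selected snoRNA hosts in each library of the 6 groups, with points for libraries and bars for the mean and SD of n = 3. GAS5 and SNHG1 drop in A2780 with daphnetin and climb in SKOV3 at 40 mg/L, where SNHG1 reaches 43.5 to 47.2 CPM from 25.0 to 27.0 CPM in DMSO.

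In SKOV3 the snoRNA hosts moved the other way, and most of the change came at 40 mg/L. At 20 mg/L, 5 of 22 rose and 1 fell, where 10.1% of all genes were called, 5.16% higher and 4.95% lower, and the median log2 change of the hosts was 0.17. With 40 mg/L, 15 rose and 2 fell, where 52.1% of all genes were called, 26.4% higher and 25.6% lower, and the median was 0.64. Treated and DMSO libraries did not overlap for 12 of the 22 hosts at 20 mg/L, against 27% of all genes, and for 19 at 40 mg/L, against 57.7%. The summed level was 325 ± 8.15 CPM in DMSO, 368 ± 3.22 at 20 mg/L and 494 ± 13.3 at 40 mg/L, still below every group of A2780. The count at 20 mg/L was 1 in place of 6 without the third DMSO library and 3 without the first library at 20 mg/L.

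ZFAS1 rose at both doses, from 53.0, 50.3 and 57.8 CPM in DMSO to 71.6, 75.0 and 74.5 CPM at 20 mg/L and 106, 100.4 and 114 CPM at 40 mg/L. The 3 groups did not overlap. Its log2 change was 0.45 at 20 mg/L (SE 0.06, adjusted p = 5.86e-07), 1.00 at 40 mg/L (SE 0.06, adjusted p = 3.54e-16) and 0.54 between the doses (adjusted p = 1.14e-09). SNHG12, which carries SNORA61, SNORA44 and SNORD99, stood at 7.52, 7.73 and 6.75 CPM in DMSO, at 9.04, 9.72 and 10.0 CPM at 20 mg/L and at 17.1, 16.9 and 17.2 CPM at 40 mg/L. Its groups were again apart in order of dose, and its log2 changes were 0.39 (SE 0.09, adjusted p = 0.00446) and 1.23 (SE 0.09, adjusted p = 9.89e-14), the first of them lost without the third DMSO library (adjusted p = 0.0547).

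GAS5 stood at 25.1, 27.9 and 22.3 CPM in SKOV3 in DMSO, at 29.4, 30.1 and 29.2 CPM at 20 mg/L and at 42.9, 43.2 and 45.8 CPM at 40 mg/L. Each dose stood above the one below it, narrowly at 20 mg/L. The log2 change at 20 mg/L was 0.24 (SE 0.07, adjusted p = 0.0216), and it was 0.15 (adjusted p = 0.256) without the third DMSO library. Without the first DMSO library or the first or the second library at 20 mg/L the adjusted p was 0.0641, 0.058 and 0.0718. The change with 40 mg/L was 0.81 (SE 0.07, adjusted p = 2.82e-12), and between the doses it was 0.58 (adjusted p = 7.4e-09).

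SNHG1 stood at 25.0, 27.0 and 26.6 CPM in SKOV3 in DMSO, at 32.1, 30.6 and 29.0 CPM at 20 mg/L and at 47.2, 43.5 and 44.5 CPM at 40 mg/L. The groups did not overlap. Its log2 changes were 0.22 (SE 0.06, adjusted p = 0.0192) and 0.79 (SE 0.06, adjusted p = 8.14e-13), with 0.57 between the doses (adjusted p = 2e-09). The call at 20 mg/L was lost without the first or the third DMSO library (0.128 and 0.0569) or the first library at 20 mg/L (0.122). EPB41L4A-AS1 stood at 25.6, 27.3 and 24.5 CPM in DMSO, at 31.2, 30.6 and 29.8 CPM at 20 mg/L and at 39.6, 36.1 and 39.6 CPM at 40 mg/L, again without overlap. Its changes were 0.24 at 20 mg/L (SE 0.06, adjusted p = 0.0106; 0.103 without the third DMSO library and 0.052 without the first library at 20 mg/L), 0.58 at 40 mg/L (SE 0.06, adjusted p = 1.74e-09) and 0.34 between the doses (adjusted p = 3.28e-05).

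SNHG8, the host of SNORA24, stood at 5.94, 6.77 and 6.63 CPM in DMSO, at 8.16, 7.04 and 6.33 CPM at 20 mg/L and at 12.3, 12.8 and 13.5 CPM at 40 mg/L. It rose at 40 mg/L by 1.00 on the log2 scale (SE 0.10, adjusted p = 3.97e-10), while the 20 mg/L libraries overlapped those in DMSO. The other hosts that rose at 40 mg/L were SNHG3, SNHG4, SNHG5, SNHG7, SNHG15, SNHG16, SNHG17, SNHG20 and SNHG25, with log2 changes from 0.44 for SNHG15 to 2.20 for SNHG25, the latter at under 1 CPM in every SKOV3 library.

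SNHG14 and SNHG21 were the hosts that fell in SKOV3 at 40 mg/L. SNHG14, the long imprinted transcript that carries the SNORD115 and SNORD116 clusters and runs antisense to UBE3A, stood at 24.9, 27.0 and 27.2 CPM in DMSO, at 23.98, 22.9 and 20.4 CPM at 20 mg/L and at 20.1, 21.8 and 20.7 CPM at 40 mg/L. All treated libraries were below those in DMSO, with log2 changes of -0.23 (SE 0.07, adjusted p = 0.0308) and -0.33 (SE 0.07, adjusted p = 0.000203). The call at 20 mg/L was lost without the second or the third DMSO library (0.0956 and 0.126) or the second or the third at 20 mg/L (0.0621 and 0.212), under scaling by totals (0.0783) and in the fit of all 18 libraries (0.0554). SNHG21 fell from 6.15, 7.16 and 6.02 CPM to 4.97, 4.64 and 4.25 CPM at 40 mg/L (log2 -0.47, SE 0.12, adjusted p = 0.00127).

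Between 40 and 20 mg/L in SKOV3, 15 snoRNA hosts rose and 1 fell, where 47.4% of all genes were called, 23.2% higher and 24.2% lower. The doses did not overlap for 15 of the 22 hosts, against 53.3% of all genes. SNHG12 and SNHG8 rose most at 1 CPM or above, by 0.84 each (adjusted p = 6.3e-10 and 1.74e-08). SNHG11 fell from 2.14, 1.71 and 2.10 CPM to 1.10, 1.56 and 1.49 CPM (log2 -0.52, SE 0.20, adjusted p = 0.0341), a call lost without the first or the third library at 20 mg/L (0.113 and 0.0904) or the first at 40 mg/L (0.187), under DESeq2 (0.0516) and with no filter (0.0673).

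**Figure D3:**
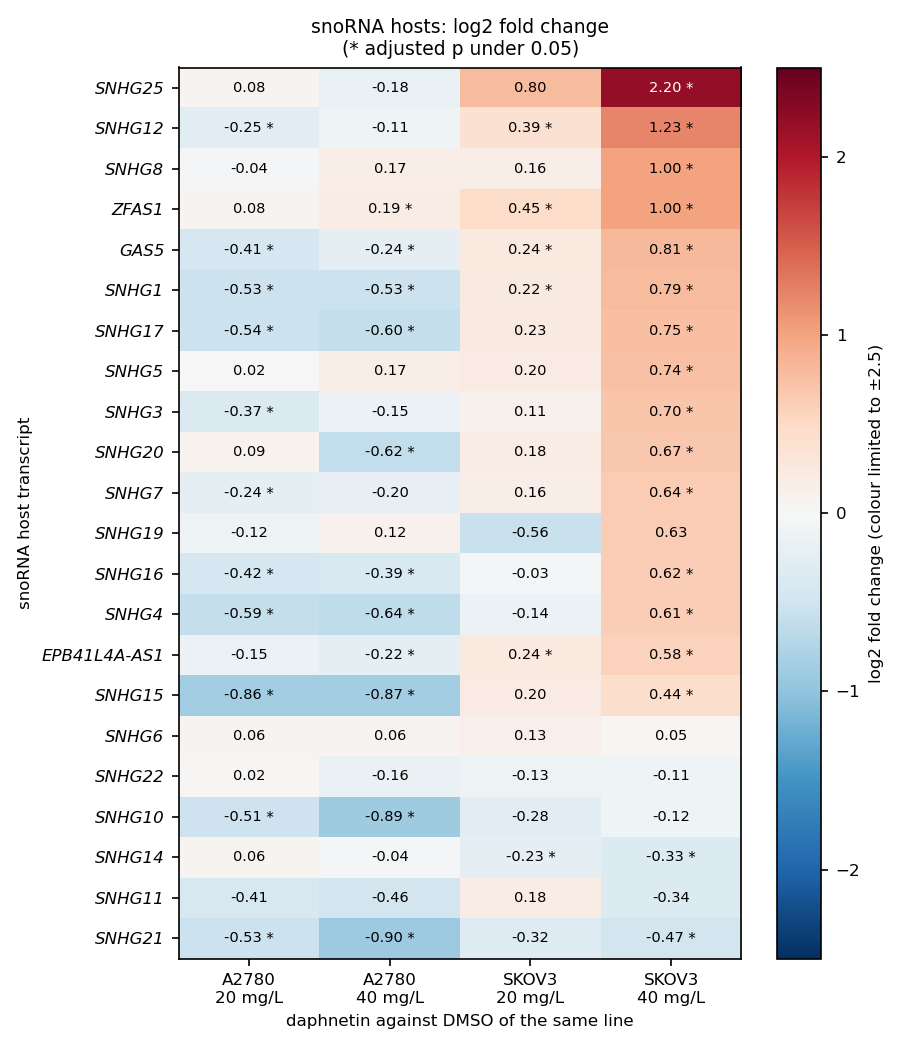
Log2 fold change of each tested snoRNA host in the treated-against-DMSO comparisons of both lines, with an asterisk for an adjusted p under 0.05. The A2780 columns are mostly negative, as for SNHG15 at -0.86 and -0.87, and the SKOV3 column at 40 mg/L is mostly positive, as for SNHG12 at 1.23.

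Responses of the lines were compared directly as an interaction, SKOV3 minus A2780. At 20 mg/L, 9 of 22 snoRNA hosts had a higher response in SKOV3 and 1 a lower one, where 21.6% of all genes were called, 11% higher and 10.6% lower. With 40 mg/L, 16 had a higher response and 1 a lower one, where 29.9% of all genes were called, 14.3% higher and 15.7% lower, with a median difference of 0.81. The same hosts set side by side at 40 mg/L gave 8 that fell in A2780 and rose in SKOV3: EPB41L4A-AS1, GAS5, SNHG1, SNHG4, SNHG15, SNHG16, SNHG17 and SNHG20. ZFAS1 rose in both lines and SNHG21 fell in both. At that dose 19.2% of all genes were lower in A2780 and 26.4% were higher in SKOV3. The share of all genes with both calls was not computed, so the 8 hosts cannot be set against it.

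For GAS5 the interaction was 0.64 at 20 mg/L (SE 0.09, adjusted p = 1.3e-06) and 1.03 at 40 mg/L (SE 0.09, adjusted p = 9.58e-12). For SNHG1 it was 0.75 (SE 0.09, adjusted p = 4.09e-08) and 1.30 (SE 0.09, adjusted p = 1.11e-14). SNHG15 at 20 mg/L, 1.05, and SNHG17, 0.77 and 1.33, were among the largest. ZFAS1 gave 0.37 and 0.79 and EPB41L4A-AS1 gave 0.39 and 0.77, all past the test. SNHG14 went the other way, at -0.30 (adjusted p = 0.0265) and -0.31 (adjusted p = 0.0153). Its call at 20 mg/L was lost without the first or the third A2780 DMSO library, the second or the third SKOV3 DMSO library or the third library at 20 mg/L of either line (0.0509 to 0.109), and that at 40 mg/L without the first A2780 library in DMSO (0.054) or at 40 mg/L (0.0665). SNHG6 stood apart as an abundant host that did not pass any test: it had 43.96 to 50.2 CPM in A2780 in DMSO and 41.8 to 50.7 CPM in SKOV3 at 40 mg/L, with log2 changes from 0.05 to 0.13 against DMSO in the 2 lines.

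MIR22HG, the primary transcript of miR-22 at chr17:1711493-1717174 on the minus strand, had the largest rise among microRNA hosts at 1 CPM or above in A2780 at both doses and in SKOV3 at 40 mg/L. It stood at 4.02, 5.61 and 4.87 CPM in A2780 in DMSO, at 19.3, 20.4 and 17.8 CPM at 20 mg/L and at 29.5, 25.7 and 25.4 CPM at 40 mg/L. No group overlapped another. The log2 change was 1.98 at 20 mg/L (SE 0.11, adjusted p = 4.83e-14), 2.45 at 40 mg/L (SE 0.11, adjusted p = 1.85e-16) and 0.48 between the doses (SE 0.10, adjusted p = 0.001). In SKOV3 it stood at 14.4, 15.4 and 13.96 CPM in DMSO, at 11.5, 11.7 and 11.4 CPM at 20 mg/L and at 31.4, 33.2 and 32.6 CPM at 40 mg/L. The 20 mg/L libraries were the lowest of the line and the 40 mg/L libraries the highest.

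MIR22HG therefore fell in SKOV3 at 20 mg/L, by 0.34 on the log2 scale (SE 0.08, adjusted p = 0.00233), and rose at 40 mg/L by 1.16 (SE 0.07, adjusted p = 1.27e-15), with 1.495 between the doses (SE 0.07, adjusted p = 4.85e-18). The interaction was -2.32 at 20 mg/L (SE 0.14, adjusted p = 4e-16) and -1.32 at 40 mg/L (SE 0.13, adjusted p = 1.56e-10). The 40 mg/L libraries ranged from 25.4 to 29.5 CPM in A2780 and from 31.4 to 33.2 CPM in SKOV3. MIR22HG carries miR-22-3p, printed above, but the libraries measured the host and not the mature microRNA.

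**Figure D4:**
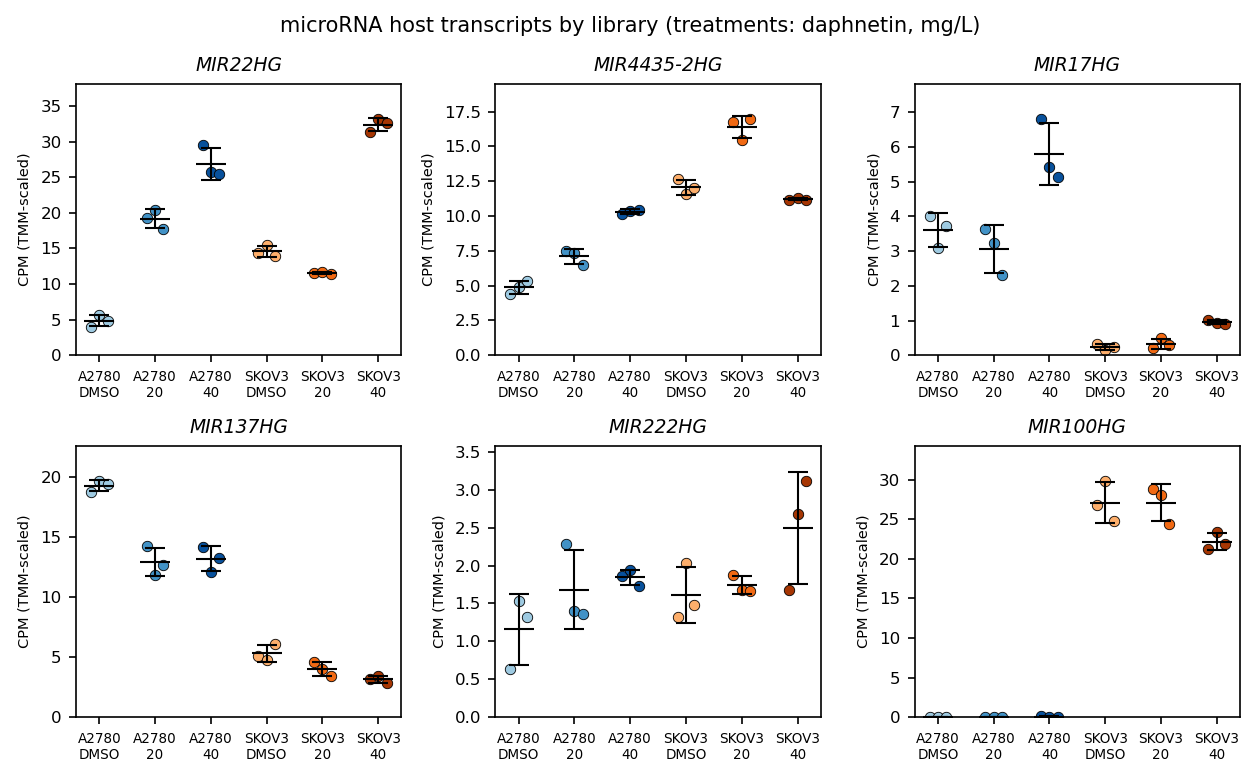
CPM on the TMM scale of selected microRNA hosts in each library of the 6 groups, with points for libraries and bars for the mean and SD of n = 3. MIR22HG climbs with dose in A2780, from 4.02 to 5.61 CPM in DMSO to 25.4 to 29.5 CPM at 40 mg/L, and in SKOV3 dips at 20 mg/L before its rise.

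As a class the microRNA hosts showed no common direction. In A2780, 18 of 50 had enough reads to test, with 4 higher and 2 lower at 20 mg/L and 6 higher and 4 lower at 40 mg/L. Of all genes, 36.9% were called at each of these doses. In SKOV3, 25 could be tested, with 1 higher and 1 lower at 20 mg/L and 5 higher and 10 lower at 40 mg/L. There 10.1% and 52.1% of all genes were called, with the shares by direction given above. Medians were 0.14 and 0.29 in A2780 and 0.00 and -0.14 in SKOV3. The summed level was 97.6 ± 3.13, 102.6 ± 3.27 and 118.7 ± 5.97 CPM in A2780 and 126 ± 5.12, 128 ± 4.78 and 133 ± 3.47 CPM in SKOV3, in order of dose. Between 40 and 20 mg/L, 5 rose and none fell in A2780, and 3 rose and 9 fell in SKOV3. Of all genes, 14.6% were called between the doses in A2780, 6.71% higher and 7.85% lower. In SKOV3 47.4% were called, 23.2% higher and 24.2% lower, and the 12 calls among 25 hosts were near that share. Without the third 20 mg/L library the count in A2780 was 3. With a minimum mean of 1 CPM fewer members are tested, and the counts in SKOV3 became 9 in place of 15 at 40 mg/L and 7 in place of 12 between the doses.

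Besides MIR22HG, the hosts that rose in A2780 included MIR4435-2HG, MIRLET7DHG and MIR17HG. MIR4435-2HG, a long noncoding transcript on chromosome 2, stood at 4.42, 4.90 and 5.36 CPM in DMSO, at 7.49, 7.36 and 6.5 CPM at 20 mg/L and at 10.2, 10.4 and 10.4 CPM at 40 mg/L. Its groups were in order of dose without overlap, with log2 changes of 0.53 (SE 0.12, adjusted p = 0.000866) and 1.06 (SE 0.12, adjusted p = 3.27e-08). In SKOV3 it rose at 20 mg/L, from 12.7, 11.6 and 11.99 CPM to 16.7, 15.5 and 17.0 CPM (log2 0.44, SE 0.08, adjusted p = 0.000233). At 40 mg/L it stood at 11.2, 11.3 and 11.1 CPM, below every DMSO library, with a change of -0.10 that did not pass (adjusted p = 0.309).

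MIRLET7DHG stood at 3.75, 3.14 and 2.67 CPM in A2780 in DMSO, at 4.62, 5.197 and 3.72 CPM at 20 mg/L and at 7.60, 6.46 and 6.41 CPM at 40 mg/L. The 40 mg/L libraries were above all others, and those in DMSO and at 20 mg/L overlapped. Its log2 changes were 0.49 (SE 0.16, adjusted p = 0.0164), 1.07 (SE 0.16, adjusted p = 2.3e-06) and 0.58 between the doses (adjusted p = 0.00745). The first was lost without the third DMSO library (0.0852) or the second at 20 mg/L (0.099), and the last without the third at 20 mg/L (0.0701). Exons of RP11-2B6.2 on the opposite strand cover 85.7% of MIRLET7DHG. MIR17HG, the primary transcript of the miR-17-92 cluster and a known MYC target, stood at 4.02, 3.09 and 3.72 CPM in DMSO, at 3.64, 3.24 and 2.30 CPM at 20 mg/L and at 6.81, 5.44 and 5.12 CPM at 40 mg/L. It rose between the doses by 0.90 (SE 0.17, adjusted p = 0.000452) and against DMSO at 40 mg/L by 0.66 (adjusted p = 0.00216). In SKOV3 MIR17HG was at 0.141 to 0.330 CPM in DMSO and at 0.894 to 1.01 CPM at 40 mg/L, where it also rose (log2 1.96, SE 0.39, adjusted p = 7.64e-05).

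The microRNA hosts called lower in A2780 at both doses were MIR137HG and MIR4697HG. MIR210HG and MIR663AHG were called lower at 40 mg/L alone. MIR663AHG, under 1 CPM in every A2780 library, held 10, 28 and 14 reads in DMSO and 4, 4 and 6 at 40 mg/L. MIR137HG, the host of the neuronally abundant miR-137, stood at 18.7, 19.7 and 19.4 CPM in DMSO, at 14.2, 11.8 and 12.7 CPM at 20 mg/L and at 14.2, 12.1 and 13.2 CPM at 40 mg/L. The treated libraries were all below those in DMSO, with log2 changes of -0.59 (SE 0.09, adjusted p = 1.22e-05) and -0.57 (SE 0.09, adjusted p = 1.84e-05). In SKOV3 it fell at 40 mg/L from 5.09, 4.77 and 6.12 CPM to 3.20, 3.42 and 2.87 CPM, by 0.74 on the log2 scale. MIR4697HG stood at 26.7, 25.4 and 24.3 CPM in A2780 in DMSO, at 16.7, 17.7 and 19.6 CPM at 20 mg/L and at 16.6, 14.9 and 16.0 CPM at 40 mg/L. Again no treated library reached the DMSO range, with log2 changes of -0.51 (SE 0.09, adjusted p = 2.57e-05) and -0.71 (SE 0.09, adjusted p = 1.95e-07).

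MIR210HG, the host of the hypoxia-induced miR-210, rested on few reads in A2780, at 1.502, 3.17 and 0.921 CPM in DMSO against 0.757, 1.28 and 1.06 CPM with 40 mg/L. These groups overlapped, and the log2 change of -0.88 (SE 0.33, adjusted p = 0.041) became -0.23 (adjusted p = 0.62) without the second DMSO library. The call was also lost without the first or the third library at 40 mg/L (0.149 and 0.101) or at 20 mg/L (0.0604 and 0.0512). In SKOV3 MIR210HG stood at 5.77, 5.75 and 6.09 CPM in DMSO, at 7.76, 8.04 and 6.33 CPM at 20 mg/L and at 3.62, 4.36 and 3.93 CPM at 40 mg/L. The 40 mg/L libraries were the lowest, and the host fell by 0.56 against DMSO (adjusted p = 0.000277) and by 0.89 between the doses (adjusted p = 2.17e-07).

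In SKOV3 at 40 mg/L the hosts that share the let-7 seed did not move together. MIR100HG, with let-7a, miR-100 and miR-125b, stood at 26.8, 29.8 and 24.7 CPM in DMSO and at 21.2, 23.4 and 21.9 CPM at 40 mg/L and fell by 0.28 on the log2 scale (SE 0.08, adjusted p = 0.0019). MIR99AHG, with let-7c, miR-99a and miR-125b, fell from 0.966, 1.13 and 0.971 CPM to 0.380, 0.527 and 0.434 CPM (log2 -1.18, SE 0.30, adjusted p = 0.00128), without overlap. MIR4500HG fell from 1.23, 1.35 and 0.922 CPM to 0.447, 0.670 and 0.406 CPM (log2 -1.18, SE 0.29, adjusted p = 0.00104), and RP11-342C20.2 on the same strand covers 19.9% of its exons.

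Among the other hosts listed with the let-7 seed, MIR4458HG rose from 5.33, 6.09 and 4.47 CPM to 6.87, 8.33 and 9.02 CPM (log2 0.61, SE 0.12, adjusted p = 5.78e-05). The row of MIRLET7DHG rose by 0.52 (adjusted p = 0.0115), from 1.84, 2.68 and 2.38 CPM to 3.51, 3.78 and 2.49 CPM, with overlap. Since let-7d lies on the opposite strand, this row is not a reading of its precursor. RP11-2B6.2 on that strand covers 85.7% of the MIRLET7DHG exons. MIRLET7BHG had a change of 0.01 that did not pass (adjusted p = 0.965).

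MIR222HG, the host of miR-221 and miR-222, stood at 1.32, 2.03 and 1.48 CPM in SKOV3 in DMSO and at 1.68, 2.68 and 3.12 CPM at 40 mg/L. These groups overlapped, and the log2 change of 0.63 (SE 0.21, adjusted p = 0.0115) was lost without the first DMSO library (0.0748) or the third at 40 mg/L (0.1). Its difference between the doses, 0.51 (adjusted p = 0.043), was lost without any 1 of the 20 mg/L libraries (0.0598 to 0.107) or without the second or the third at 40 mg/L (0.129 and 0.255, the latter with a difference of 0.32). MIR181A2HG, the host of miR-181a and miR-181b, stood at 1.46, 1.10 and 1.65 CPM in DMSO, at 1.90, 1.41 and 1.55 CPM at 20 mg/L and at 0.515, 0.598 and 0.759 CPM at 40 mg/L. The 40 mg/L libraries were below all the others, with log2 changes of -1.18 against DMSO (SE 0.26, adjusted p = 0.000245) and -1.38 between the doses (SE 0.25, adjusted p = 3.07e-05).

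MIR31HG stood at 5.82, 6.88 and 6.65 CPM in SKOV3 in DMSO and at 4.45, 4.09 and 5.09 CPM at 40 mg/L, without overlap, and fell by 0.50 on the log2 scale (SE 0.12, adjusted p = 0.000797). Since IFNWP19 on the opposite strand covers 40.7% of the MIR31HG exons, part of these reads may belong to it. MIR205HG, a host active in squamous and basal epithelium, had 0.613, 0.564 and 0.485 CPM in DMSO, then 0.238, 0.439 and 0.173 CPM at 20 mg/L and no read at 40 mg/L. Against a floor of 3 counts per library it was at least 7.55-fold lower at 40 mg/L than in DMSO. The epithelial markers given above were lower at 40 mg/L in SKOV3 as well, and their part in this result was not tested.

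**Figure D5:**
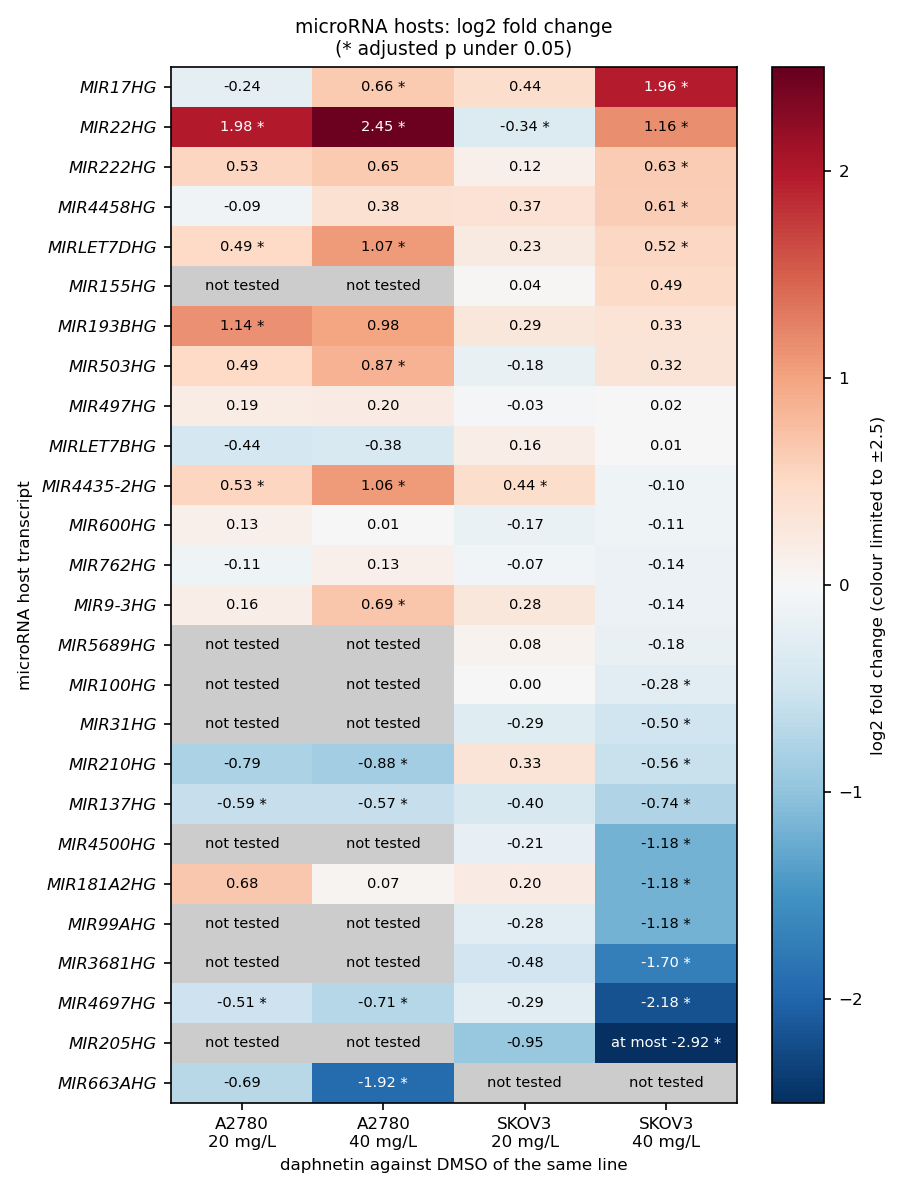
Log2 fold change of each tested microRNA host in the treated-against-DMSO comparisons of both lines, with an asterisk for an adjusted p under 0.05. Grey cells are labelled as not tested. MIR22HG reads 1.98 and 2.45 in A2780 and -0.34 and 1.16 in SKOV3, and MIR205HG at 40 mg/L is drawn as a bound because no read was counted there.

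Across both lines at 40 mg/L, 17 microRNA hosts could be tested in each. MIR17HG, MIR22HG and MIRLET7DHG rose in both, and MIR137HG, MIR210HG and MIR4697HG fell in both. The share of all genes with such pairs of calls was not computed. The fall of MIR210HG in A2780 was not stable, as given above, and the SKOV3 groups of MIRLET7DHG overlapped. For MIR4697HG the SKOV3 libraries held 29, 12 and 23 reads in DMSO and 1, 6 and 7 at 40 mg/L. MIR4435-2HG, MIR503HG and MIR9-3HG rose in A2780 and did not pass in SKOV3. The interaction was called for 2 of 25 hosts at 20 mg/L, 1 in each direction, and for 5 at 40 mg/L, 1 higher and 4 lower, where 21.6% and 29.9% of all genes were called. Neither count was above the share of all genes. Besides MIR22HG, these were MIR210HG at 20 mg/L (1.12, adjusted p = 0.0131; 0.48 and 0.267 without the second A2780 DMSO library) and, at 40 mg/L, MIR17HG (1.27, adjusted p = 0.00992), MIR4435-2HG (-1.19, adjusted p = 8.77e-09), MIR4697HG (-1.52, adjusted p = 0.00492) and MIR100HG. The value for MIR100HG rests on 0 to 4 reads per A2780 library, is no measure of size, and lost its call without any 1 of the A2780 DMSO libraries (0.057 to 0.0646) or the first A2780 library at 40 mg/L (0.159). The calls of MIR17HG and MIR4697HG were lost without the second SKOV3 DMSO library (0.0671) and the first SKOV3 library at 40 mg/L (0.0699).

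Some small RNAs inside the hosts have rows of their own in the table, 153 snoRNA rows and 49 microRNA rows, of which 85 and 31 were at 0 in every library. An mRNA library does not capture mature small RNAs well, and these rows overlap their hosts, so they are a second reading of the same region and not independent of it. In SNHG1, the rows of SNORD22, SNORD26 and SNORD25 fell in A2780 at 20 mg/L by 0.47, 0.63 and 0.87 on the log2 scale. In SKOV3 at 40 mg/L the same 3 rows rose by 0.69, 0.75 and 0.67 (adjusted p = 3.02e-05, 0.00558 and 0.0481). SNORD104 in SNHG25 rose in SKOV3 at 40 mg/L by 2.72 (SE 0.51, adjusted p = 3.44e-05), where its host rose by 2.20. SNORD12C differed from its host ZFAS1 in A2780 at 20 mg/L, where its row fell by 0.94 (SE 0.27, adjusted p = 0.00732) and ZFAS1 stood at 0.08.

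The proteins that build snoRNPs and the protein-coding genes that also carry snoRNAs were counted from gene lists. Of 8 core proteins of box C/D and H/ACA snoRNPs, 8 fell in A2780 at 20 mg/L and 7 at 40 mg/L, where 18.9% and 19.2% of all genes fell, with medians of -0.62 and -0.50. The lowest at 40 mg/L were DKC1, the pseudouridine synthase, at -0.88 and NOP56, a C/D core protein, at -0.79. In SKOV3 none passed at 20 mg/L, and at 40 mg/L 3 rose, with NOP58 at 0.48 and NOP10 at 0.33, and 3 fell, with GAR1 at -0.31 and NHP2 at -0.25, where 26.4% of all genes rose and 25.6% fell. Of 12 assembly factors, 3 rose and 3 fell in A2780 at 40 mg/L, among them NOLC1 at -0.87 and RUVBL2 at -0.81, and 5 rose and 4 fell in SKOV3 at 40 mg/L, where 36.9% and 52.1% of all genes were called. Of 16 nonsense-mediated decay factors, 3 rose and 4 fell in A2780 and 6 rose and 4 fell in SKOV3 at that dose, shares near those of all genes.

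Protein-coding snoRNA hosts were mostly lower in A2780 and higher in SKOV3 among those that passed. Of 37, 19 fell and none rose in A2780 at 20 mg/L, and 12 fell and 1 rose at 40 mg/L, where 18.9% and 19.2% of all genes fell. The lowest at 40 mg/L were NCL, the nucleolar protein nucleolin, at -0.83 and the initiation factor EIF4A1 at -0.66. In SKOV3 at 40 mg/L 23 rose and 4 fell, where 26.4% of all genes rose and 25.6% fell, with a median of 0.21, led by PPAN at 0.87 and TAF1D at 0.62, while CHD4 fell by 0.83. In DMSO 32 were lower and 3 higher in SKOV3, against 37.2% and 41.2% of all genes. The interaction at 40 mg/L was called higher in SKOV3 for 21 and lower for 1, against 14.3% and 15.7% of all genes.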

How the data were processed

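The 18 RNA libraries, 3 in each of 6 groups, came from a strand-marking mRNA kit, per the labels' protocols. The submitters' processing notes name Trimmomatic 0.36 and GRCh38. The authors deposited unnormalised read counts per gene, and the columns are laid out as featureCounts writes them, per the file headers. Which aligner, counter, annotation and strand option were used is not given in the sources used here. In each library 74.3% to 77.0% of counts from 1 to 12 were even, so mates appear to have been counted separately.

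Each line was fitted alone with edgeR 4.0.16 in R 4.3.3 (filterByExpr, TMM, robust quasi-likelihood F test, two-sided, Benjamini-Hochberg over 20593 genes in A2780 and 21936 in SKOV3). All 18 libraries were fitted together (23742 genes) for differences between the lines. Of the 25 snoRNA hosts 22 were tested in each line, and of the 50 microRNA hosts 18 in A2780 and 25 in SKOV3. The others failed the filter on low counts, including 1 snoRNA host and 5 microRNA hosts at 0 in every library. Levels are CPM scaled by TMM over all 18 libraries. The fits were tested on simulated data. Replicate counts differed beyond counting error (chi-square divided by its degrees of freedom, 5.03 to 34.7), and reads are not independent molecules, so depth sets counting error only. Members and lists were chosen with earlier results of these data known. MIR22HG, GAS5, ZFAS1, EPB41L4A-AS1 and SNHG1 are given throughout, with the 3 called members of highest and lowest log2 fold change per class at 1 CPM or more in each treated-against-DMSO comparison (2 in the other comparisons), and other members for description. Alternatives were DESeq2 1.42.0, other scalings, filters and fits, and leaving out each library.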

Additional observations from a re-analysis of the deposited data

Results flagged for a closer look

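The responses of the lines differed by the interaction test, SKOV3 minus A2780 in the edgeR fit of all 18 libraries, for these named hosts. Values are differences of log2 fold changes with 3 libraries a group.

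At 20 mg/L the snoRNA hosts with a higher response in SKOV3 were SNHG15 (1.05), SNHG17 (0.77), SNHG1 (0.75), GAS5 (0.64), EPB41L4A-AS1 (0.39) and ZFAS1 (0.37), and SNHG14 had a lower one (-0.30). MIR22HG was at -2.32 and MIR210HG at 1.12.

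At 40 mg/L SNHG25 was at 2.36, SNHG17 at 1.33, SNHG1 at 1.30, GAS5 at 1.03, ZFAS1 at 0.79, EPB41L4A-AS1 at 0.77 and SNHG14 at -0.31. The value for SNHG25 rests on 9, 5 and 2 reads in the SKOV3 DMSO libraries. SNORA50 on the same strand coincides with 48.6% of the SNHG25 exons, so part of these reads may belong to it. MIR17HG was at 1.27, MIR22HG at -1.32, MIR4697HG at -1.52 and MIR100HG at -4.49. The last value depends on the prior count added to A2780 libraries with 0 to 4 reads, and gives no size.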

How the results depend on the processing

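No called change of a named host reversed its direction under any alternative run. Of the counts of called genes and hosts under alternatives, 558 stayed within 1.5 times and 27 did not, and of the values of single hosts 2040 kept direction and side of the threshold, 69 lost the call, 2 gained it and 3 changed sign. The sign changes were all of SNHG1 between 40 and 20 mg/L in A2780, 0.01 as reported, which became 0.00 with a minimum mean of 1 CPM and ran from -0.04 (without the first library at 20 or at 40 mg/L) to 0.04 when 1 library was left out.

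Leaving out 1 library at a time gave 7 to 11 snoRNA hosts in A2780 at 20 mg/L, 1 to 7 in SKOV3 at 20 mg/L and 1 to 2 in A2780 between the doses. For microRNA hosts it gave 3 to 6 in A2780 between the doses, 2 to 4 in SKOV3 at 20 mg/L and 2 to 5 for the interaction at 20 mg/L (5 without the first A2780 library at 20 mg/L). Over all genes it gave 1583 to 3500 calls in A2780 between the doses, against 2999 with all libraries, and 1443 to 2652 in SKOV3 at 20 mg/L, against 2217, or 1466 in the fit of all 18 libraries. The snoRNA hosts called in A2780 between the doses were 2 under relative log expression scaling, library totals, DESeq2 and no filter, and 3 in the fit of all 18 libraries. MicroRNA hosts in SKOV3 at 20 mg/L were 4 under library totals and with halved counts. DESeq2 called 4 and 8 microRNA hosts for the interaction at 20 and 40 mg/L. A minimum mean of 1 CPM left 9 and 7 microRNA hosts in SKOV3 at 40 mg/L and between the doses, with fewer tested. The cause of the other shifts was not tested.

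Scaling by library totals moved the median log2 change of all genes in A2780 at 20 mg/L from 0.01 to 0.103. Replicate numbers gave no sign of pairing. Departures from the group mean correlated between -0.059 and 0.051 for same-numbered libraries and between -0.08 and 0.065 for the other pairs. How the cultures were set up cannot be read from these values. The fit with the replicate number as a block gave 7255 called genes and 11 snoRNA hosts in A2780 at 20 mg/L and 11622 and 17 in SKOV3 at 40 mg/L. It lost MIR222HG between the doses in SKOV3 (adjusted p = 0.0502) and ZFAS1 between the lines (0.0527). Hosts under about 1 CPM rest on few reads, and 24 microRNA hosts were tested in neither line.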

Other observations

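Proteins that process microRNAs and protein-coding genes that carry microRNAs were counted from gene lists. Of 16 processing proteins, 1 rose and 7 fell in A2780 at 40 mg/L, against 17.7% and 19.2% of all genes, and RAN, the GTPase of nuclear export, stood at -0.74, TARBP2, a partner of Dicer, at -0.42 and AGO4 at 0.79. In SKOV3 at 40 mg/L 8 rose and 3 fell, against 26.4% and 25.6% of all genes, with AGO3 at 0.50, DICER1 at 0.46 and RAN at -0.40. Of 34 protein-coding microRNA hosts tested, 5 rose and 18 fell in SKOV3 at 40 mg/L, with a median of -0.24, SMC4 at -1.24 and GABRE at 1.43, where 26.4% of all genes rose and 25.6% fell.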
